A study of Mus musculus with 26 samples.

Results

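The proneural basic helix-loop-helix (bHLH) genes examined here were Neurog1, Neurog2, Neurog3, Neurod1, Neurod2, Neurod4, Atoh1, Olig2 and Olig3, 9 of the 26180 mouse genes with a curated RefSeq start site. They were chosen by name, and a member was assigned a region when a region of a deposited table overlapped 1.5 kb either side of one of its start sites in mm10. Where several regions did so, the region with the most overlap was kept. On the plus strand the start sites lie at chr3:127633136 (Neurog2), chr6:64729125 (Atoh1), chr10:19356539 (Olig3), chr10:62133090 (Neurog3) and chr16:91225550 (Olig2). On the minus strand they lie at chr2:79456636 (Neurod1), chr10:130280254 and chr10:130280138 (Neurod4), chr11:98329645 (Neurod2) and chr13:56252180 (Neurog1). The sequencing data came from sequential chromatin immunoprecipitation (ChIP-reChIP) on mouse embryonic stem cells (ESCs) grown in serum and LIF, with 2000000 cells per experiment. Chromatin was cut with MNase to mostly single nucleosomes and was precipitated first for one histone mark and then for the other, as K4-K27 (H3K4me3 followed by H3K27me3) or K27-K4 (the reverse order). From the eluate of the first ChIP 10% was kept as the in-line total H3K4me3 or in-line total H3K27me3, and IgG followed by IgG served as the negative control. The labels give all libraries as the E14 line. The wild-type, non-clonal cells, called E14 cells here, were profiled in replicate 1 (sequencing batch A) and replicate 2 (sequencing batch B). The WT group comprised clones 57 and 58 and the DKO group, deficient for Dppa2 and Dppa4, comprised clones 43 and 53, all sequenced in batch C. The clones were made in earlier work, and each is a single clone. Each of these groups therefore had 2 libraries per ChIP, and there was 1 IgG–IgG library from E14 replicate 1 and 1 from WT clone 57. The p-values measure the spread between these few libraries, and in the clones they cannot separate genotype from features particular to the 2 clones that carry it. Because E14 cells and the clones were sequenced in different batches, cell source and batch cannot be told apart.

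Proneural factors bind E-box DNA as partners of the broadly expressed E proteins and commit progenitors to neuronal fates, partly by inducing Notch ligands that act on neighbouring cells. In ESCs their promoters are textbook examples of bivalent chromatin, in which active-associated H3K4me3 and Polycomb-associated H3K27me3 occupy the same nucleosomes while the gene is silent. DPPA2 and DPPA4 are small chromatin proteins of pluripotent cells that keep a subset of bivalent promoters in this state.

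The members' promoters range from rich to poor in CG dinucleotides, the sequence feature of CpG islands, which recruit both marks in ESCs. The 250 bases before the start site of 4 members are given on the sense strand from RefSeq (GRCm38.p6, the same assembly as mm10), with CG in capitals. Neurog1 (chr13:56252181-56252430, minus strand) is shown because its promoter held the most CG, Olig3 (chr10:19356289-19356538, plus strand) because it changed in the DKO clones, Neurog2 (chr3:127632886-127633135, plus strand) because its profile was closest to the mean of the members, and Neurod4 (chr10:130280255-130280504, minus strand) because no table listed a region there.
Neurog1: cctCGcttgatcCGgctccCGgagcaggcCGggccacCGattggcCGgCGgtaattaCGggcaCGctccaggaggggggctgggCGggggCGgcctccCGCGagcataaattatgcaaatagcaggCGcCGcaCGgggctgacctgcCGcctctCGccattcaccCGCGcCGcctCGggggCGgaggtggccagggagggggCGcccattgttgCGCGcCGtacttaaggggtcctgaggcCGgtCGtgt
Neurog2: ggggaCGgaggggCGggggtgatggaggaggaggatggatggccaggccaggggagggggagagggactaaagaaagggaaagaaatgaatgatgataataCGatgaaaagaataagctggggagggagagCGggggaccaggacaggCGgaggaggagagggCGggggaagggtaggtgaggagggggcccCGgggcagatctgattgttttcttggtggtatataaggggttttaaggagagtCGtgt
Olig3: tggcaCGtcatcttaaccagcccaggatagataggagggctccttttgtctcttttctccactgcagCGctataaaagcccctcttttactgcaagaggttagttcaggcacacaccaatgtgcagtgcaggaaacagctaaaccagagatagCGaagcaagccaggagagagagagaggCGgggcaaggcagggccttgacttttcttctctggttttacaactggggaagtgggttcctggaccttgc
Neurod4: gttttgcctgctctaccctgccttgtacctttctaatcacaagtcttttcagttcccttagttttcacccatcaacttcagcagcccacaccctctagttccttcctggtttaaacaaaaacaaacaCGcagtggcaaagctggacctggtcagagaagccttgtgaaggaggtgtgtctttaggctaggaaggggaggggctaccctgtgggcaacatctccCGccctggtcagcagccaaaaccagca

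Neurog1 carried 29 CG in these 250 bases, more than 93.2% of 32851 RefSeq promoters of the same length, whose median was 6. Neurod1 and Olig2 each carried 22, Neurog3 18, Atoh1 14, Neurod2 11 and Neurog2 8. Olig3 had 4 CG, more than 37.8% of promoters, the fewest among the members with a region. Neurod4 has 2 annotated start sites, with 2 CG before the upstream one and 7 before the downstream one. The E-box motif CANNTG, which reads the same on both strands, occurred in 66.2% of all promoters, 3 times in Neurod2 and once each in Neurog3, Neurod1 and Olig3. TATAAA, searched on both strands, occurred in 12.4% of promoters and once each in Olig2 and Olig3, the pair of members that act in progenitors of the ventral and dorsal spinal cord. These are counts of letters in a short window and not measurements of binding.

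Both reChIP orientations listed a region at 8 of the 9 members in E14 cells, with Neurod4 as the exception. For comparison, 58.7% of all 26180 genes had a region in the E14 K4-K27 table and 66.2% in the K27-K4 table. The in-line totals listed fewer members. Total H3K4me3 covered 7 members (53.2% of all genes), without Neurog1 and Neurod4, and total H3K27me3 covered 6 members (12.1% of all genes), without Neurod1, Neurod4 and Atoh1. In the WT clones each reChIP again covered 8 members (59.4% of all genes for K4-K27 and 33.7% for K27-K4), whereas total H3K4me3 and total H3K27me3 covered 5 each (60.2% and 15.8%). In the DKO clones each reChIP covered 7 members (57.8% and 32.1%), total H3K4me3 covered 4 (56.1%) and total H3K27me3 covered 6 (17.6%).

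Olig3 was the only member with a region in all 4 WT tables and in none of the 4 DKO tables. The nearest DKO regions lay 2339 bp from its start site for K27-K4, 3239 bp for K4-K27, 3089 bp for total H3K4me3 and 18512 bp for total H3K27me3. Neurod1, a differentiation factor of neurons and of pancreatic beta cells, went the other way for total H3K27me3: the DKO table listed a region (chr2:79454101-79457100) where the nearest WT region was 90586 bp away. Neurog2 likewise had a total H3K27me3 region in the DKO table and none in the WT table, where the nearest lay 8336 bp away. Its mean level at that DKO region was 1.59 in the DKO and 1.61 in the WT clones. The DKO regions of Neurod1 for total H3K4me3 and K4-K27 overlapped its promoter window by only 165 and 315 bp. Neurod4, which acts with other bHLH factors in the retina and neural tube, had no region in any of the 12 tables, and the nearest lay 5888 bp away. Whether a region is listed depends on a threshold, so levels were compared next.

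**Figure D1:**
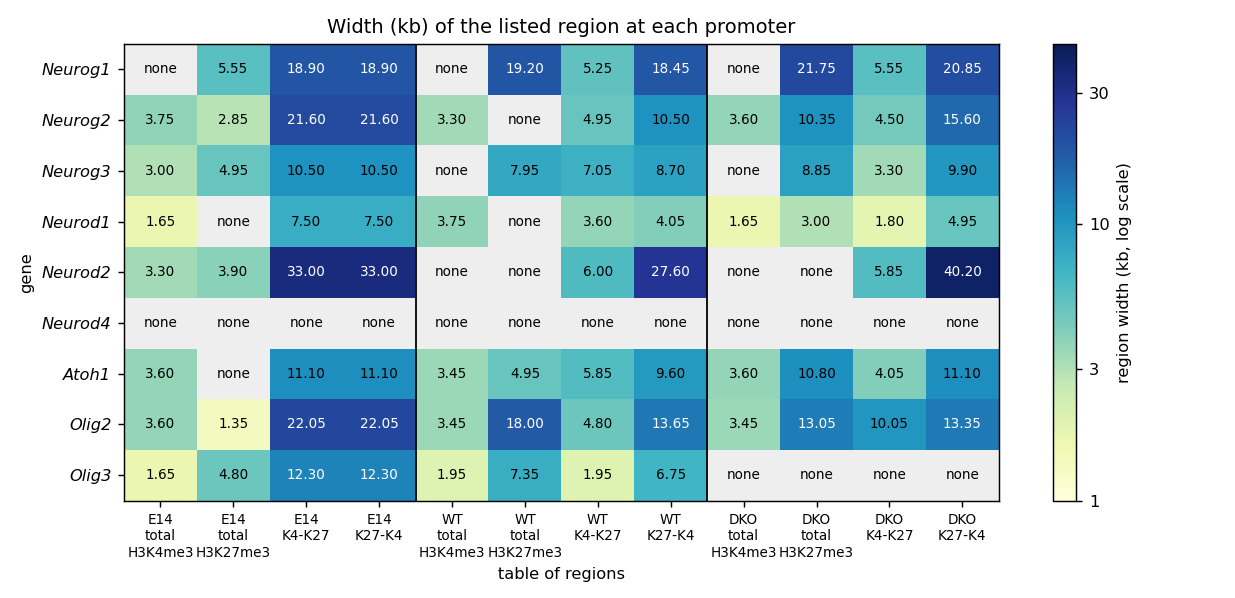
Width of the listed region (kb, colour on a log scale) at each of the 9 members (rows) in each of the 12 tables (columns; both in-line totals and both reChIPs for E14, WT and DKO). Cells marked none hold no region within 1.5 kb of a start site: Neurod4 has none in any table, and Olig3 has none in the DKO tables.

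The member regions of the E14 reChIP tables were broad. In the K27-K4 table they ranged from 7500 bp at Neurod1 to 33000 bp at Neurod2, a factor of maturing excitatory neurons, against a median of 3750 bp over 15120 regions at promoters, so that each was wider than 84.5% to 99.8% of them. The E14 total H3K4me3 regions of 7 of these genes were between 1650 and 3750 bp wide, 5 of them above the median of all promoter regions (2625 bp). In the WT clones the K27-K4 regions (4050 to 27600 bp) were wider than the K4-K27 regions (1950 to 7050 bp). In E14 cells both orientations had regions with the same ends at each member, so those widths do not compare the orientations. Olig3 had the narrowest WT K4-K27 region, 1950 bp, equal to the median of all promoter regions in that table. Of the 7 member regions for K4-K27 in the DKO clones, 6 were above the median of 2400 bp, and Neurod1, at 1800 bp, was below it. The DKO K27-K4 region at Neurod2 (40200 bp) also reached the start site of the neighbouring gene Ppp1r1b, so its width is not a property of Neurod2 alone.

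Levels were compared first at the 8 member regions of the E14 K27-K4 table, on the deposited scale of log2 RPM per kb (RPM being reads scaled to the library size). In E14 cells total H3K4me3 at the members ranged from -0.12 to 0.47 in replicate 1 and from -0.09 to 0.53 in replicate 2, and total H3K27me3 from 0.10 to 0.82 and from -0.45 to 0.83. K4-K27 reached 1.38 to 2.69 in replicate 1 and 2.23 to 2.90 in replicate 2, and K27-K4 reached 1.84 to 2.48 and 3.11 to 3.87. IgG–IgG lay between -1.09 and -0.16. Every reChIP value therefore exceeded every total and IgG–IgG value, without overlap, which held within 27.4% of the 36235 regions of that table, and the K27-K4 replicates differed from each other by more than the members did within a replicate.

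Against the other promoter regions of that table (14343 regions), the members were low in total H3K4me3 and high in total H3K27me3 as means over whole regions. Their regions were wider than most of these, and total H3K4me3 was higher at narrower regions. In the WT clones, for example, its mean at Neurog2 was 2.19 over 3300 bp and 1.15 over 10500 bp. Their median was 0.08 and 0.03 in the E14 total H3K4me3 replicates, where all promoter regions had medians of 0.61 and 1.01. For total H3K27me3 their median was 0.42 in both replicates, against -0.88 and -1.09. In ranks over the same libraries the members lay between the 14 and 41.6 percentiles (total H3K4me3), between 65.2 and 99.7 (total H3K27me3), and in the reChIPs between 79.8 and 99.7 (K4-K27) and between 82.3 and 98.3 (K27-K4). In the WT clones the ranks were 9.7 to 36.6, 71.1 to 99.7, 28.7 to 91.0 and 78.1 to 97.6 in the same order, so that K4-K27 set the members apart from other promoters less there than K27-K4 did. These regions were listed because of their reChIP signal, and the ranks are descriptions.

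**Figure D2:**
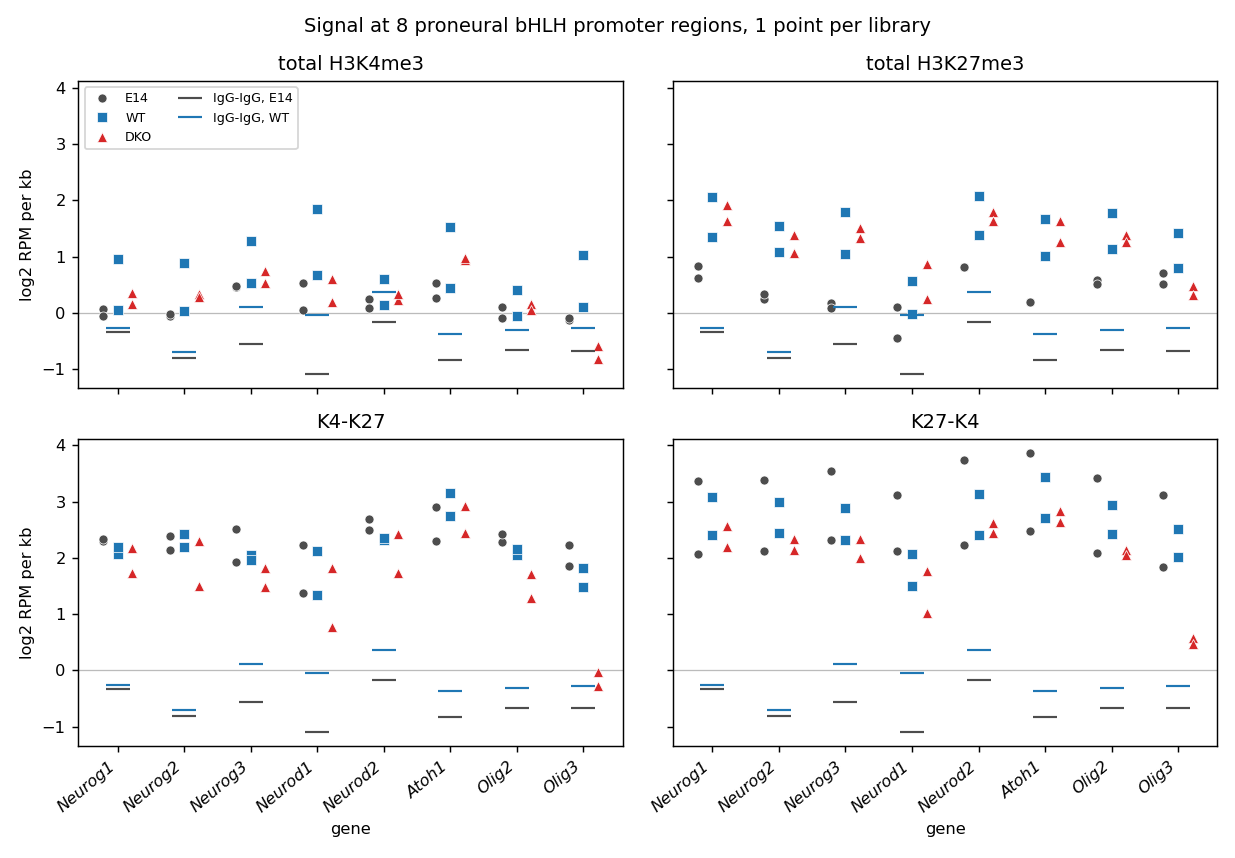
Level (log2 RPM per kb) at the E14 K27-K4 table region of 8 members (x axis) for the 4 ChIPs (panels), with 1 point per library of E14 (circles), WT (squares) and DKO (triangles) and short lines for the IgG–IgG library of E14 and of WT clone 57. In the reChIP panels the DKO points of Olig3 are the lowest DKO values, at or below 0.57.

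Enrichment over the IgG–IgG library of the same set, as a mean over libraries, was above 0 at each of the 8 members for all 4 ChIPs in E14 cells with the E14 IgG–IgG library as control. On the log2 scale it ranged from 0.33 (Neurod2) to 1.38 (Neurod1) for total H3K4me3, from 0.68 (Neurog3) to 1.28 (Olig3) for total H3K27me3, from 2.66 to 3.43 for K4-K27 and from 3.05 to 4.01 for K27-K4. Atoh1, the determinant of inner-ear hair cells and cerebellar granule neurons, had the highest enrichment in both orientations, and in the WT clones it was again highest (3.32 for K4-K27 and 3.45 for K27-K4). In the DKO clones, measured against the IgG–IgG library of WT clone 57, Olig3 was lowest, with a K4-K27 enrichment of 0.12, a K27-K4 enrichment of 0.79 and a total H3K4me3 value of -0.44, whereas Atoh1 kept 3.05 and 3.11 for the reChIPs. There was no IgG–IgG library from a DKO clone, and the 1 E14 library, from replicate 1, also served replicate 2 of another batch. Against the IgG–IgG library of the other set, Atoh1 stayed highest in both reChIPs of E14, WT and DKO cells and Olig3 lowest in those of DKO cells. In the E14 totals, however, total H3K4me3 became 0.32 at Neurod1 and -0.20 at Neurod2, and total H3K27me3 became 0.01 at Neurog3 and -0.14 at Neurod1. The enrichment of single members in the E14 totals therefore depends on the control used, whereas the E14 reChIPs stayed between 1.84 and 3.55.

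The reChIPs were compared with the in-line totals in E14 cells. All libraries came from 2 replicates, and the p-values treat libraries of the same replicate as independent. The paper describes the in-line totals as noisier, likely because of low starting material. The difference therefore does not measure the second precipitation alone. A region was called here and below when the log2 difference exceeded 1 and the adjusted p was under 0.05 (limma, Benjamini-Hochberg adjustment over all regions tested). The reChIPs were higher at 8 of 8 members, against 29.3% of the 21857 regions listed in both E14 reChIP tables and a median difference of 1.18. The differences ran from 2.01 (SE 0.383) at Olig3 to 2.59 (SE 0.370) at Atoh1, with adjusted p between 0.00357 and 0.00458 in limma (4 reChIP and 4 total libraries). The regions entered the tables through the reChIPs, and the share called is best read beside the 29.3%. With each library centred on its median, 3 members (Neurog3, Neurod1 and Atoh1) remained called and the differences at the other 5 ran from 0.87 (Olig3) to 1.25 (Neurog2).

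In E14 cells the balance of the in-line totals, a mean over each whole region, differed in sign among the members. It was below 0 at the members with the widest regions (12300 bp at Olig3 to 33000 bp at Neurod2). The members above 0 had narrower regions (7500 bp at Neurod1 to 11100 bp at Atoh1), and whether width accounts for the sign was not tested. In E14 cells total H3K4me3 minus total H3K27me3 was -0.72 (SE 0.156) at Neurog1, -0.72 (SE 0.173) at Olig3, -0.65 (SE 0.135) at Neurod2, -0.55 (SE 0.168) at Olig2 and -0.33 (SE 0.198) at Neurog2. It was above 0 at Neurod1 (0.46, SE 0.262), Neurog3 (0.35, SE 0.160) and Atoh1 (0.19, SE 0.168). Adjusted p was 0.0012 for Neurog1, 0.00273 for Olig3, 0.000916 for Neurod2 and 0.0115 for Olig2 (limma), but no difference exceeded 1, so 0 of 8 members were called (1 higher and 4 lower at an unadjusted p under 0.05). Across the 21857 regions 44.3% were called higher and 4.52% lower, with a median of 0.73 (11473 higher and 2828 lower at an unadjusted p under 0.05), and limma-voom on recovered reads also called 0 members. Centring the libraries moved that median by 0.86, put 5 members among the lower calls (Neurog1, Neurog2, Neurod2, Olig2 and Olig3), and brought Neurog3, Neurod1 and Atoh1 below 0 as well.

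In the WT clones the same balance was negative at 7 of 8 members, down to -1.38 (SE 0.824) at Neurod2, -1.21 at Olig2 and -1.18 at Neurog1. It was positive at Neurod1 (1.11, SE 0.770), whose region was the narrowest (4050 bp). None of the 8 was called (lowest adjusted p 0.217 and 0 members at an unadjusted p under 0.05, limma), where 28.0% of 11133 regions were called higher and 2.78% lower (3737 and 490 at an unadjusted p under 0.05) and limma-voom called 1 member, Neurod2. With the clone as a block, 4 members were called: Neurod2 (adjusted p 0.0112), Olig2 (0.0279) and Neurog1 (0.0311) toward H3K27me3 and Neurod1 (0.0351) toward H3K4me3, all in limma. With the libraries centred, which moved the median of all regions by 0.92, 7 members (all but Neurod1) were called toward H3K27me3, down to -2.30 at Neurod2, with 3141 regions higher and 3017 lower. WT clone 57 stood apart from clone 58 in total H3K4me3, with a median over the 14343 promoter regions of 2.38 against 1.16. Without the total H3K4me3 library of clone 58, Neurod1 was called (1.76, adjusted p 0.0152, limma), with clone 57 alone standing for that group.

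Taken within each replicate or clone at the E14 K27-K4 regions, the balance at Neurog3, the determinant of endocrine cells of the pancreas, was 0.30 and 0.40 in E14 cells and -0.52 in each of the 2 WT clones. At Atoh1 it was 0.06 and 0.33 in E14 cells and -0.15 and -0.57 in the WT clones. At Neurod1 it was 1.28 and 0.68 in the WT clones and -0.26 and -0.07 in the DKO clones. On the deposited scaling and at these regions, these 3 members changed sign between groups without overlap. Of all 36235 regions of that table, 1.88% went from above 0 in both E14 replicates to below 0 in both WT clones and 6.63% from above 0 in both WT clones to below 0 in both DKO clones, whereas 2.07% and 0.596% changed the other way. The differences between groups were not tested. After centring, the E14 balance of Neurog3 and Atoh1 was -0.52 and -0.67, negative as in the WT clones.

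**Figure D3:**
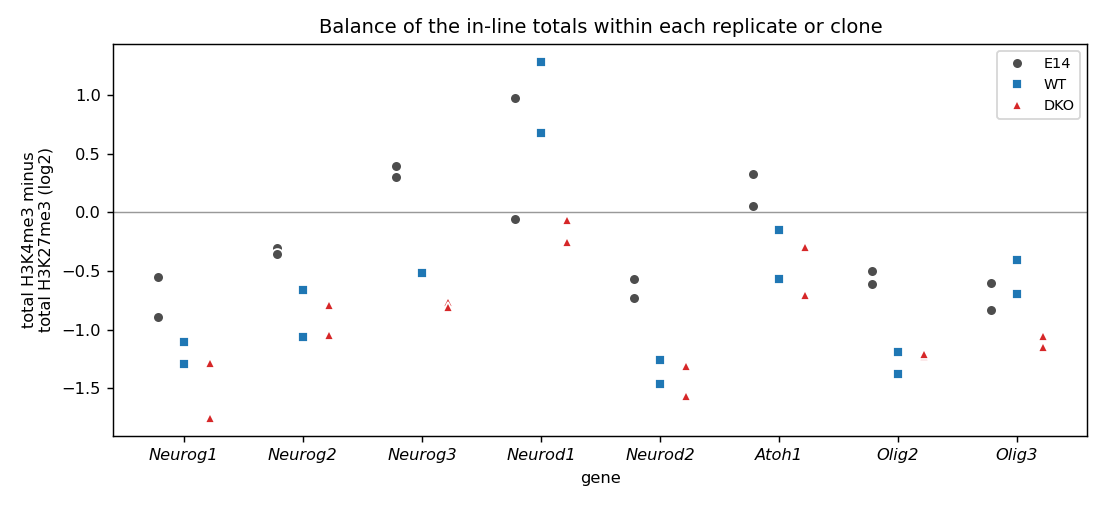
Total H3K4me3 minus total H3K27me3 (log2) within each E14 replicate (circles), WT clone (squares) and DKO clone (triangles) at the E14 K27-K4 table region of 8 members (x axis). Neurod1 is the only member above 0 in both WT clones, and all DKO points lie below 0.

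With the deposited scaling, orientation made no called difference at any member. In E14 cells K27-K4 minus K4-K27 lay between 0.39 (Neurod2) and 0.81 (Neurod1), above 0 at all 8 members, with 0 called by limma or by limma-voom (adjusted p from 0.829 to 0.837, limma). Of the 21857 regions 0% were called higher and the median difference was 0.70, with 55 regions higher and 0 lower at an unadjusted p under 0.05. The members did not move alike in both replicates: Neurod2 was -0.46 in replicate 1 and 1.23 in replicate 2, and only Neurog3, Neurod1 and Atoh1 were above 0 in both. After centring of the libraries, which moved the median of all regions by 0.68, 6 of the 8 members lay below 0, and a fit blocked on the replicate called 1523 regions higher but no member. In the WT clones the members ran from -0.08 (Neurod1) to 0.62 (Neurog1), 0 were called by limma (adjusted p 0.797 to 0.998) and by limma-voom, and 0.0449% of 11133 regions were called higher and 10.8% lower (55 and 1858 at an unadjusted p under 0.05). Centring moved the median of the WT regions by -0.50, called Neurog1 (1.12, adjusted p 0.00416) and Neurog3 (1.08, adjusted p 0.00311, limma) higher in K27-K4, and gave 967 regions higher and 1313 lower. The 95% confidence intervals of the members reached from -1.49 to 2.61 in E14 cells and from -1.17 to 1.76 in the WT clones, and on simulated data the E14 comparison recovered only 22% of shifts of 3 (log2).

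The DKO clones were compared with the WT clones for each ChIP, which asks whether the promoters depended on Dppa2 and Dppa4. Olig3, which specifies progenitors of dorsal interneurons, lost signal in both reChIPs and in total H3K4me3, and no other member was called. At its WT K4-K27 region (chr10:19356151-19358100, which spans the start site at 19356539 and the start of the transcribed gene), K4-K27 was 3.82 in clone 57 and 3.32 in clone 58 but 0.39 in clone 43 and -1.66 in clone 53, from 255, 209, 27 and 8 reads. K27-K4 there was 4.20 and 3.52 in the WT clones and 0.74 and 0.98 in the DKO clones (568, 381, 76 and 66 reads). Both reChIPs thus separated the genotypes without overlap, by more than the clones of a genotype differed. Lack of overlap alone was common: at the regions tested, every DKO library lay below every WT library at 6 of 8 members for K4-K27 (all but Neurog2 and Neurod1) and at 3 of 8 for K27-K4 (Neurog2, Olig2 and Olig3), beside 19.2% and 30.8% of all regions. The member regions came from the WT table, whereas all regions came from both clone tables.

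At the same region total H3K4me3 of Olig3 was 2.70 and 1.57 in the WT clones and -0.14 and -0.28 in the DKO clones (239, 97, 48 and 39 reads). Total H3K27me3 was 2.08 and 1.26 in the WT clones and -0.03 and 0.84 in the DKO clones (152, 73, 35 and 118 reads). The IgG–IgG library of WT clone 57 gave 29 reads there, at -0.003. The DKO values of total H3K4me3 lay below that IgG–IgG value, whereas the H3K27me3 value of clone 53, the K4-K27 value of clone 43 and both K27-K4 values lay above it. The counting error of 8 or 27 reads is wide, so the size of the loss in K4-K27 is less well known than its direction.

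**Figure D4:**
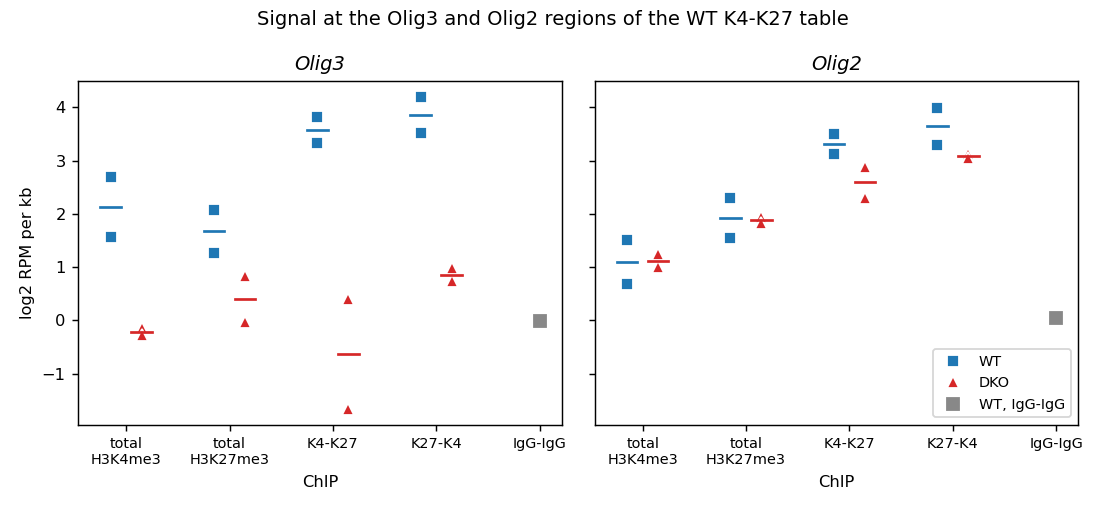
Level (log2 RPM per kb) at the WT K4-K27 table region of Olig3 (left) and Olig2 (right) for 4 ChIPs and IgG–IgG (x axis), with 1 point per clone (WT squares, DKO triangles) and a line at the mean of each group. At Olig3 the WT points lie above the DKO points in all 4 ChIPs, and at Olig2 the total H3K4me3 and total H3K27me3 points of the genotypes overlap.

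Each ChIP was tested at the member's own region in the WT table, or in the DKO table where the WT table listed none (Neurog2 and Neurod1 for total H3K27me3). Olig3 had regions only in the WT tables, so the regions tested for it were listed through the group in which it was higher. For Olig3, K4-K27 fell by 4.21 on the log2 scale (SE 0.657, 95% confidence interval -5.50 to -2.92, adjusted p 3.86e-07, limma), and 1 of 8 members was called lower where 1.19% of 53855 regions were called lower and 0.00557% higher. K27-K4 fell by 1.95 (SE 0.423, interval -2.79 to -1.11, adjusted p 0.00138, limma) over a longer region (chr10:19352101-19358850), again 1 of 8 members against 2.24% lower and 0.0270% higher of 59260 regions. Total H3K4me3 fell by 2.39 (SE 0.581, interval -3.53 to -1.25, adjusted p 0.0048, limma), 1 of 5 members against 2.47% lower and 0.254% higher of 64063 regions. Total H3K27me3 differed by -0.82 at Olig3 (SE 0.418, adjusted p 0.325, limma), and 0 of 7 members were called by limma or by limma-voom, against 1.78% lower and 0.976% higher of 53286 regions (4344 and 3862 at an unadjusted p under 0.05). The regions of the WT and DKO tables overlap one another, so these percentages count some stretches more than once.

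The calls at Olig3 did not rest equally firmly. The 12 alternatives below include a fit limited to the WT table, which repeats the same Olig3 region. K4-K27 was called under all 12 alternatives tried, with differences from -5.23 to -1.81 and adjusted p up to 0.0456 (limma and limma-voom). At the broader E14 K27-K4 table region (chr10:19351651-19363950), which was listed without the clones, the differences were -1.81 for K4-K27 (adjusted p 0.0271), -1.74 for K27-K4 (0.000665) and -1.27 for total H3K4me3 (0.0648), all in limma, so that the last was not called there. K27-K4 was called under 9 of 12. It was not called in limma without the variance trend and robust estimation together (difference -1.95, adjusted p 0.0961). Nor was it called without the library of DKO clone 43 (-2.11) or that of clone 53 (-1.79). Total H3K4me3 was called under 9 of 12, and apart from the E14 region it lost the call in limma without DKO clone 43 (-2.43) and without clone 53 (-2.35), with an adjusted p of 1 for each. For K27-K4 and total H3K4me3 the differences without a DKO clone were close to those with both, and only 1 clone then stood for the DKO group. For K4-K27 the difference was -5.23 without clone 43 and -3.18 without clone 53, against -4.21 with both. Because the reads come from bulk chromatin, fewer cells carrying the marks and less of the marks per cell cannot be told apart.

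None of the other 7 members passed the test in either reChIP, and at an unadjusted p under 0.05 none did so either (limma). Olig2, which specifies motor neuron and oligodendrocyte progenitors and is the closest relative of Olig3 in the set, had K4-K27 of 3.51 and 3.12 in the WT clones and 2.89 and 2.31 in the DKO clones at its WT K4-K27 region. Its K27-K4 was 3.98 and 3.30 in the WT clones and 3.12 and 3.05 in the DKO clones, and its total H3K4me3 was 1.52 and 0.68 against 1.24 and 1.00, which overlap. The tested difference of Olig2 was -0.72 for K4-K27 (SE 0.612, adjusted p 0.672) and -0.54 for K27-K4 (SE 0.523, adjusted p 0.564, limma), the lowest value among the 7 in each orientation. Over these 7 members K4-K27 differed by -0.72 to 0.11 with 95% confidence intervals between -1.91 and 1.27, and K27-K4 by -0.54 to 0.18 with intervals between -1.61 and 1.05.

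**Figure D5:**
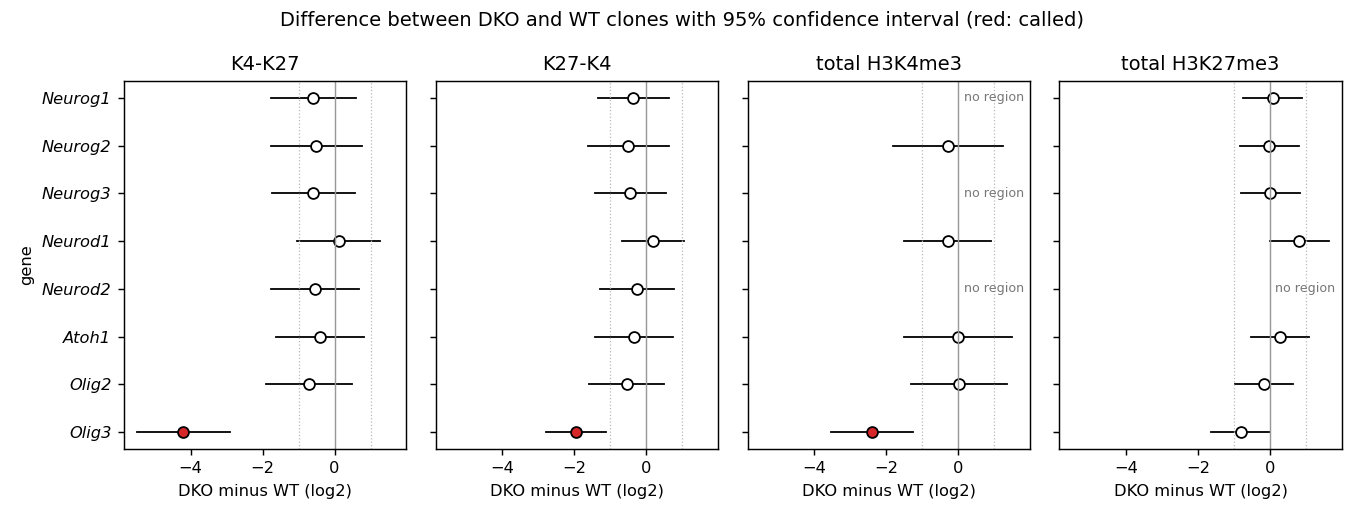
Difference between DKO and WT clones (log2) with its 95% confidence interval from limma for 8 members (rows) and 4 ChIPs (panels); filled red points are called, dotted lines mark a difference of 1 either way, and no region means that neither clone table listed one. Olig3 is called in both reChIPs and total H3K4me3, and the intervals of the other members include 0, apart from that of Neurod1 for total H3K27me3.

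All but 1 member lay below 0 in each reChIP comparison (7 of 8 for K4-K27 and 7 of 8 for K27-K4), with medians of -0.57 and -0.41 beside medians of -0.01 and -0.14 over all regions tested. The member regions all came from the WT table and the regions tested from both clone tables, so the medians are not like for like. The exception in both was Neurod1, at 0.11 and 0.18. At the E14 K27-K4 table region Neurod1 lay below 0 as well (-0.43 and -0.39). At the WT K4-K27 region of Neurod1, K4-K27 was 2.57 and 1.46 in the WT clones and 2.67 and 1.58 in the DKO clones, with full overlap. Total H3K27me3 of Neurod1 differed by 0.82 at the DKO region (mean 1.00 in DKO and 0.19 in WT, SE 0.416, adjusted p 0.323, limma), which did not pass the test. For the other 5 members with a total H3K27me3 region, differences lay between -0.17 (Olig2) and 0.28 (Atoh1). Total H3K4me3 differed by -0.30 to 0.01 at the 4 members other than Olig3 that had a region (adjusted p 1 for each, limma).

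Among the neurogenins, Neurog2, which drives excitatory neuron identity in the cortex, had K4-K27 of 3.91 and 3.54 in the WT clones and 3.66 and 2.79 in the DKO clones at its WT region. Neurog1, which specifies sensory neurons, had 3.05 and 3.14 in the WT clones and 2.78 and 2.22 in the DKO clones. Neurog3 had 2.58 and 2.46 in the WT clones and 2.02 and 1.83 in the DKO clones. Their tested differences of -0.51 (SE 0.647), -0.59 (SE 0.603) and -0.60 (SE 0.587) were smaller than or close to their errors, with adjusted p between 0.754 and 0.858 (limma). Atoh1 had 3.54 and 3.20 in the WT clones and 3.17 and 2.75 in the DKO clones, and differed by -0.41 (SE 0.625, adjusted p 0.905, limma). Neurod2 had 3.52 and 3.37 in the WT clones and 3.22 and 2.58 in the DKO clones, and differed by -0.54 (SE 0.626, adjusted p 0.821, limma). Of these 5 members, only Neurog2 overlapped between the genotypes in K4-K27.

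Related genes were counted in the same way, and their reChIP regions too were all taken from the WT table. Of 11 other neural bHLH factors, 9 had a region in the clones' K4-K27 and 9 in their K27-K4 tables, all lay below 0 in both (medians -0.86 and -0.70), and 1 was called lower in each, beside 1.19% and 2.24% of all regions (2 lower in each at an unadjusted p under 0.05, limma). This was Nhlh2, a bHLH factor of hypothalamic neurons, whose K4-K27 was -0.15 in DKO and 3.16 in WT as means (difference -3.31, SE 0.650, adjusted p 0.000159, limma) and whose K27-K4 was 0.08 and 3.21 (difference -3.13, SE 0.424, adjusted p 6.48e-08, limma). The K4-K27 call on Nhlh2 was lost without the library of WT clone 57 (adjusted p 0.0554, limma), and its K27-K4 call held under all 12 alternatives. At the E14 K27-K4 table region Nhlh2 differed by -2.91 and -3.14 (adjusted p 9.21e-06 and 5.01e-10, limma). The E proteins, obligate partners of the proneural factors, had 3 genes with a K4-K27 region and 1 with a K27-K4 region (medians -0.34 and -0.23), and 0 were called by limma, with 0 at an unadjusted p under 0.05. Of 11 HLH antagonists (the Hes, Hey and Id genes), 0 were called by limma in either reChIP (medians -0.30 and -0.28), with 1 lower in each at an unadjusted p under 0.05.

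For the in-line totals of the DKO and WT clones, the HLH antagonists had the only call of these lists. Id2, which sequesters E proteins, was higher in total H3K27me3 (mean 1.00 in DKO and -0.31 in WT, difference 1.31, SE 0.409, adjusted p 0.0487, limma), 1 of 7 antagonists with a region, where 0.976% of all regions were called higher. The region of Id2 was listed in the DKO table and not in the WT table, and so through the group in which it was higher. That call held under only 2 of 11 alternatives. The genes that act with or after proneural factors had 11 with a K4-K27 region and 12 with a K27-K4 region, 0 called by limma (0 also at an unadjusted p under 0.05), and medians of -0.47 and -0.20. In the E14 balance of totals all 3 E proteins were called higher for H3K4me3 (median 2.66), as were 4 of 11 antagonists (median 0.73) and 2 of 11 genes acting with or after proneural factors (median 0.02), whereas 0 of 10 other neural bHLH factors were (median -0.33), beside -0.44 over the members and 44.3% of all regions called higher. The shares of the antagonists and of the genes acting with or after proneural factors do not exceed that background.

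The genes whose promoter regions were most alike to the mean profile of the members were Barhl2, Mnx1, Gata2, Gm16551 and Scarf2. Pearson's r over the 24 libraries other than IgG–IgG was 0.994 for Barhl2, 0.994 for Mnx1 and 0.993 for each of the other 3, among 17321 genes compared. The members themselves reached 0.989 (Neurog2), 0.986 (Olig2), 0.978 (Neurod2), 0.975 (Neurog3), 0.971 (Neurog1), 0.928 (Atoh1), 0.811 (Neurod1) and 0.797 (Olig3). Neurod1 and Olig3 thus departed most from the common profile. The points share libraries and the contrast between reChIPs and totals, so r is high for many bivalent promoters and is a description.

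The 26 libraries held from 6741244 to 47903462 reads, with a median of 16875025. The 7 ESC markers tested (such as Pou5f1, Nanog and Sox2) had a total H3K4me3 region in E14, WT and DKO tables alike, and total H3K27me3 regions were listed at 1, 1 and 0 of them. Neural progenitor markers (Sox1, Pax6 and Nes) and fibroblast markers (Col1a1, Col1a2 and Thy1) also had total H3K4me3 regions, except Sox1 in the E14 table and Nes and Col1a2 in the DKO table. No RNA was measured in this series to tell whether such cells were present. The paper states that the cells were cultured without feeders. Total H3K4me3 at the Dppa2 promoter was 1.90 and 0.78 in the WT clones and 2.08 and 1.34 in the DKO clones, and at Dppa4 it was 2.34 and 1.45 against 2.39 and 1.56. The position of the deletions is not given in the sources used here, so these values do not test the knockout.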

How the data were processed

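In-line totals, reChIPs and IgG–IgG were read for 26 libraries, 9 from E14 cells and 17 from WT and DKO clones, grouped by the labels. Per the labels, reads were trimmed with Trim Galore 0.6.6, aligned to mm10 with BWA 0.7.13 and handled with SAMtools 1.9 and Picard 2.6.0. The authors quantified them in SeqMonk with duplicates kept and deposited log2 RPM per kb of region, without subtraction of IgG–IgG. The study's methods describe peaks called with EPIC2 against IgG–IgG. The deposited E14 K27-K4 table holds more regions (36235) than the paper reports peaks for that reChIP, so they are not its final peaks. How the deposited regions were made is not given in the sources used here. The labels' processing notes also name MACS2, with no role. From the 12 tables a total of 240 columns was read, and 32 columns of no sample in this series were left out. All values were whole reads within 0.05, with 0 reads entered as 0.9, so total reads (6741244 to 47903462) and reads per region could be recovered.

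Comparisons were fitted in R 4.3.3 with limma 3.58.1 (lmFit, eBayes with trend and robust estimation) on the deposited log2 values of only the ChIPs compared, with Benjamini-Hochberg adjustment over all regions tested. The authors tested counts; here limma on the log2 values as deposited was the main test, and limma-voom on the recovered reads was the count-based alternative. DKO and WT clones were compared over the regions of both clone tables of a ChIP. Fits within WT used the 11133 WT K27-K4 regions that overlap a WT K4-K27 region by at least 1 bp, because few regions of those tables have the same ends. Python 3.11.15, numpy 2.4.6, pandas 2.3.3 and matplotlib 3.10.9 served for the rest.

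The rule took all 9 members, given by name or by range, from related lists the genes called between DKO and WT, and by likeness the 5 genes with the highest r. The members and lists were chosen with earlier results of these data known. Same-numbered E14 libraries share a batch and same-numbered clone libraries share cells, and their deviations from group means correlated from -0.215 to 0.576 in E14 and from -0.087 to 0.458 in WT. On simulated data with 200 regions shifted by 3 on the log2 scale, 45.5% were recovered for K4-K27 and 65% for K27-K4 between DKO and WT (53855 and 59260 regions), 65.5% for total H3K4me3 and 99.5% for total H3K27me3, and 22% for orientation in E14 (21857 regions). Alternatives were centring of libraries, the variance model, a filter on low values, other regions, 1 fit for all clone libraries, the replicate block, other windows and leaving out each library.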

Additional observations from a re-analysis of the deposited data

Results flagged for a closer look

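The balance of the in-line totals (total H3K4me3 minus total H3K27me3, log2, within each replicate or clone) was taken at the E14 K27-K4 regions. There it changed sign between groups at 3 members, with every library of one group on the other side of 0 from every library of the other. A change from above to below 0 of this kind, the direction of all 3, was seen at 1.88% of the 36235 regions between E14 cells and WT clones and at 6.63% between WT and DKO clones. At Neurog3 the WT clones differed from E14 cells by -0.87 (mean 0.35 in E14 and -0.52 in WT). At Atoh1 they differed by -0.55 (0.19 and -0.36). At Neurod1 the DKO clones differed from the WT clones by -1.14 (0.98 in WT and -0.16 in DKO). The side of 0 depends on the scaling: after each library was centred on its median, the E14 balance was -0.52 at Neurog3 and -0.67 at Atoh1 and the WT balance, at the WT reChIP regions, -1.56 and -1.17, so these 2 members no longer changed sign. None of these differences was tested, and those between E14 cells and WT clones cannot be told apart from the sequencing batch. Groups of 2 libraries are too small for a test of single libraries that stand apart.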

How the results depend on the processing

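Each group held 2 libraries, and depth limits regions with few reads most, such as Olig3 K4-K27 in the DKO clones. Of 806 member values recomputed under alternatives, 771 kept their call, 11 lost and 24 gained one, and 0 called values reversed. The count of called members fell from 1 to 0 for K27-K4 between DKO and WT without the variance trend and robust estimation together, and for total H3K4me3 at E14 K27-K4 regions. For both ChIPs the count also changed when libraries were left out. Centring gave 2 members for orientation in WT, 5 for the balance of totals in E14, 7 in WT, and 3 for reChIPs against totals. Calling by adjusted p alone gave 4 for the balance in E14, and limma-voom gave 1 in WT, where leaving out libraries gave 0 to 1. With the replicate block, 4 members were called for the WT balance, K27-K4 exceeded K4-K27 at 1523 E14 regions in place of 0, and the block changed no other member's call. DKO and WT clones carry different numbers and could not be paired. Windows of 5 kb gave 7 members for DKO total H3K4me3 in place of 4 and 8 for each DKO reChIP, Olig3 included.

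Uncalled values changed sign in 49 cases, 34 of them with a library left out. Among the other 15, Neurod1 K4-K27 and K27-K4 between DKO and WT became -0.43 and -0.39 at the E14 regions, and Olig2 total H3K4me3 became -0.07 there and -0.02 after centring. Centring also took Neurog3 total H3K27me3 to -0.03, Neurod1 orientation in WT to 0.42, 6 E14 orientation values to between -0.29 and -0.10, and the E14 balance of Neurog3, Neurod1 and Atoh1 to -0.52, -0.41 and -0.67. Over the same regions, alternatives gave 189 to 4543 lower calls for K4-K27 between DKO and WT, 482 to 5504 for K27-K4, 74 to 4714 for total H3K4me3 and 0 to 948 for total H3K27me3, with 3 to 3476, 0 to 3126, 0 to 1304 and 0 to 568 higher. For orientation they gave 0 to 1523 higher in E14, and 0 to 967 higher and 141 to 2086 lower in WT. For the balance of totals they gave 6979 to 11135 higher and 837 to 5897 lower in E14, and 150 to 4762 and 8 to 3017 in WT, and for reChIPs against totals 1099 to 8267 higher. Over all 57443 distinct regions of both WT reChIP tables, orientation gave 2736 higher and 11396 lower and the balance 16266 and 4176, and over 38918 in E14 the balance gave 14579 and 2835. Fits limited to regions of the WT table, chosen after seeing the data, tested the same Olig3 regions with the same differences. The calls they kept at Olig3 therefore add no support.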
